A study of Mus musculus with 11 samples.

Results

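The oocyte-expressed NLRP genes were taken as 9 genes, Nlrp4a, Nlrp4b, Nlrp4c, Nlrp4e, Nlrp4f, Nlrp9a, Nlrp9b, Nlrp9c and Nlrp14, listed by name. They make up 9 of the 54146 genes in each library's gene table, and every symbol matched a single gene identifier. Levels are given as TPM, a unit that divides reads by transcript length and scales every library to the same total and so allows genes to be compared, and in expected counts, the reads that the authors' quantification assigned to each gene. A gene was called detected in a library at 3 or more expected counts.

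The libraries came from 11 single mouse embryos of the C57BL/6 strain at the 8-cell stage (E2.5), obtained by natural mating of parents that both carried Prdm10Δ/+. The Δ allele lacks exon 5 of Prdm10, a gene for a zinc finger transcription factor, and the 5 mutant embryos were Prdm10Δ/Δ. The 6 control embryos were Prdm10+/+ or Prdm10Δ/+, which the labels do not tell apart, so that all embryos had a heterozygous mother and the controls can carry the deletion on 1 allele. Embryos were collected and processed as 2 batches, with 16 cycles of PCR pre-amplification in batch 1 (3 controls, 2 mutants) and 13 cycles in batch 2 (3 controls, 3 mutants), and no treatment was given.

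NLRP proteins carry a pyrin domain, a nucleotide-binding NACHT domain and a run of leucine-rich repeats. Some family members assemble inflammasomes in immune and epithelial cells, whereas another group is transcribed in growing oocytes and deposited in the egg. The rodent Nlrp4 and Nlrp9 genes arose by repeated local duplication, Nlrp14 is a single-copy gene whose maternal loss stops mouse embryos during cleavage, and most transcripts of this kind are degraded as the embryonic genome becomes active.

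The copies were similar enough for their sequence to bear on how reads could be assigned. Aligned coding sequences were 77.4% to 93.9% identical among the 5 Nlrp4 genes (10 pairs) and 82.3% to 87.4% among the 3 Nlrp9 genes (3 pairs), against a median of 57.5% for the 23 pairs from different groups. The closest pair was Nlrp4c and Nlrp4e at 93.9%. These genes share a run of 120 identical coding bases, longer than the 75-base reads, which is shown here because a read inside it cannot be told apart between the genes. It is printed with 15 bases on each side, from 1 coding exon of each gene on the plus strand (GRCm38, transcripts of GENCODE vM21), Nlrp4c at chr7:6060700-6060849 and Nlrp4e at chr7:23301387-23301536, 5′ to 3′, with capitals at the bases that differ.
Nlrp4c: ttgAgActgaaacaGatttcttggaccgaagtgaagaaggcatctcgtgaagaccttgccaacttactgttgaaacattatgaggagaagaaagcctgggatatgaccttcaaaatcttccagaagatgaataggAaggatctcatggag
Nlrp4e: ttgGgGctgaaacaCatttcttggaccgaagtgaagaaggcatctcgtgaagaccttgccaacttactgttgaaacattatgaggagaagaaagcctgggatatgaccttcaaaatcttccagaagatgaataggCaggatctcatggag
The longest such run among the Nlrp9 genes was 129 bases, shared by Nlrp9a (chr7:26557532-26557690) and Nlrp9b (chr7:20023413-20023571), again in 1 coding exon on the plus strand with capitals at the differing bases.
Nlrp9a: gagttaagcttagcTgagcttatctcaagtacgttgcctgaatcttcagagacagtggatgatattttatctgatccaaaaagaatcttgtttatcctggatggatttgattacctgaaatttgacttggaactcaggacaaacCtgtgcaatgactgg
Nlrp9b: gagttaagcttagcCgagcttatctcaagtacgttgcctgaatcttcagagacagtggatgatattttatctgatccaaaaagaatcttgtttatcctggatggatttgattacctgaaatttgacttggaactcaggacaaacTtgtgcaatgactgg

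Over whole transcripts, 20.1% of the 75-base windows of Nlrp4e also occurred in another gene's transcripts. Most of these were in unnamed gene models such as Gm8486, which alone held 18.6% of the Nlrp4e windows and reached 28.9 expected counts in its highest embryo. The share was 4.25% for Nlrp9b, 3.08% for Nlrp4c and 0 for Nlrp4b and Nlrp14, and it lay between 0.310% and 1.98% for the other 4 genes. In the deposited counts Nlrp4e likewise stood out, its expected count being no whole number in 9 of 11 embryos, while those of Nlrp14, Nlrp4a and Nlrp4b were whole in all 11. The posterior SD that the authors' quantification gave for a count was 6.71% of the counts of Nlrp4e and under 4% for the other 8 genes. The only annotated gene whose exons overlap those of a member is Gm18877 on the strand of Nlrp9b, and it had no counts.

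Promoter windows were found in the RefSeq table (GRCm38.p6) for 8 of the 9 genes. The pair with the most similar windows was Nlrp9c and Nlrp9a, 2 genes on opposite strands whose levels in these embryos lay far apart, and the 250 bases before each annotated start are therefore shown. Nlrp9c is on the minus strand (chr7:26403701-26403950) and Nlrp9a on the plus strand (chr7:26534773-26535022). Of 203 aligned bases, 96.1% were identical and 8 differed, which are in capitals, and the longest identical run was 106 bases.
Nlrp9c: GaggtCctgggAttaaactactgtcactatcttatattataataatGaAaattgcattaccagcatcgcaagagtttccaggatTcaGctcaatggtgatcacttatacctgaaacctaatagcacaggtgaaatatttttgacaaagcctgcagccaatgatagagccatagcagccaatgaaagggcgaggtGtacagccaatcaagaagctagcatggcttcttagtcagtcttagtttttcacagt
Nlrp9a: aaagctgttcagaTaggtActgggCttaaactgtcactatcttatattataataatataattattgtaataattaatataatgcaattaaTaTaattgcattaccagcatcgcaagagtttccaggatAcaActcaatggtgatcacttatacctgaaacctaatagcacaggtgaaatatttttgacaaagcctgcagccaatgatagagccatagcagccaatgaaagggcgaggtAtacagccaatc
A match to the E-box letters CANNTG, searched on both strands, was present in 10 of the 10 windows of these genes and in 72.3% of all 32851 windows of that table. CCAAT was present in 7 of 10 windows and in 37.4% of all windows, both printed sequences among them, and TATAAA in 1 of 10 (Nlrp9b) and in 13.6% of all.

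Depth ran from 3534735 to 8265840 summed expected counts per library, so that 3 counts, the limit that a count of 0 allows, were 3.63e-05% to 8.49e-05% of a library. Without molecular identifiers such limits cover counting error only. Prdm10 itself had a TPM of 11.1 to 24.8 in the controls and 4.88 to 8.16 in the mutants, without overlap, although its gene-level count was not called (log2 difference -0.66 ± 0.26 SE, DESeq2 adjusted p = 0.215). Control replicate 1 correlated least with the other libraries of its batch (median r = 0.850 against 0.879 to 0.919 for the rest). Of the markers of other cell types, the summed TPM of 6 oviduct genes was 0 to 0.81 in batch 1 and 1.59 to 32.9 in batch 2. That of 6 blood and immune genes was 8.76 to 14.1 and 17.8 to 138. The oviduct sum was mostly Ovgp1 (mean 7.41), with Foxj1 next at 0.121. Of the blood and immune genes, Lyz2 (mean 21.6) was higher in batch 2 and Cd68 (6.94) lower by their estimates. Their log2 differences were 8.80 ± 1.30 (SE) and -0.82 ± 0.46, neither called. That of 10 cumulus and granulosa genes was 44.0 to 81.5 in batch 1 and 19.6 to 40.8 in batch 2, most of it Amhr2 (mean 42.8). Of the other 9, Star had a mean of 0.699 (0.422 in batch 1 and 0.930 in batch 2), Inha reached 7.83 at its highest, 3 (Foxl2, Has2 and Ptx3) were listed at 0 in every embryo, and the remaining 4 had means of 0.146 or less. Of 22 listed oocyte genes, 14 had a mean normalised count above 10 and 1, Figla, was at 0 in every embryo. The highest of them was Dppa3 (mean TPM 5060). Of 10 cleavage markers, 9 were above 10, among them Pou5f1 (mean TPM 184), and Cdx2 was below (5.22 normalised counts).

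Nlrp14 (chr7:107166990-107198102, plus strand) was the most abundant of the 9 genes at the 8-cell stage. It had 64 to 303 expected counts per embryo and a TPM of 12.4 ± 4.05 (SD, n = 11), the level of rank 5220 among the 25981 genes with any TPM. In the controls the TPM was 10.3 at the lowest, 13.0 at the median and 20.1 at the highest, and in the 5 mutants it was 10.4, 13.1, 7.44, 13.6 and 6.27. Mutant replicates 3 and 5 lay below every control and the other 3 mutants within the control range. It was the highest of the 9 genes in 10 embryos, the exception being mutant replicate 3, in which Nlrp9c was higher, and it made up 27.7% to 66.9% of the summed TPM of the 9.

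Among the Nlrp9 genes, Nlrp9c (chr7:26322473-26403700, minus strand) was the one with a level in every embryo. Its TPM was 4.11 ± 2.02 (SD, n = 11), with 1.18 at the lowest, 4.87 at the median and 6.41 at the highest of the controls, and 1.56, 3.11, 8.01, 3.21 and 3.13 in the mutants. Control replicate 1 stood below all other embryos and mutant replicate 3 above all others, while the remaining 9 embryos lay between 1.56 and 6.41. Nlrp9b (chr7:19991465-20073306, plus strand), which in intestinal epithelium forms an inflammasome against rotavirus, was detected in 5 embryos with a TPM of 0.437 ± 0.520. Nlrp9a (chr7:26535023-26575615, plus strand) was the lowest of all, detected in 4 embryos with a TPM of 0.299 ± 0.454. By mean TPM over all embryos, Nlrp9c and Nlrp9a, with near-identical upstream sequence, ranked second and last of the 9, although Nlrp9a and Nlrp9b did not differ beyond their spread and Nlrp9a ranked above Nlrp9b in the mutants and in batch 1.

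Among the Nlrp4 genes, Nlrp4f and Nlrp4a were detected in all 11 embryos and Nlrp4e in 10. Nlrp4f, the only member outside chromosome 7 (chr13:65177111-65205977, minus strand), had a TPM of 2.66 ± 1.45 (SD, n = 11). Nlrp4a (chr7:26435113-26476142, plus strand) followed at 1.64 ± 1.36 and Nlrp4e (chr7:23301192-23362277, plus strand) at 1.55 ± 1.38. Nlrp4c (chr7:6045161-6105150, plus strand) and Nlrp4b (chr7:10687789-10730168, plus strand) were each detected in 6 embryos, at 1.02 ± 1.44 and 0.825 ± 0.995. Nlrp4c was highest in control replicate 2 (TPM 4.21) and mutant replicate 5 (3.25), far above its median of 0.280 over 11 embryos, and Nlrp4b was highest in mutant replicate 3 (3.35, median 0.870).

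Along the order of mean TPM, the 8 pairs of neighbours were compared within embryos by a two-sided exact sign-flip permutation test on log2(TPM + 0.1). The order came from the same embryos, so the pairs were set by the tested values, and the p-values make no allowance for that choice. Only Nlrp14 and Nlrp9c differed beyond their spread, by 1.68 ± 1.05 (SD, n = 11) on the log2 scale with Nlrp14 higher in 10 of 11 embryos (exact p = 0.00195, Benjamini-Hochberg adjusted p = 0.0156 over the 8 pairs). The step from Nlrp4f to Nlrp4a missed the threshold (0.88 ± 0.98 on the log2 scale, higher in 8 of 11, exact p = 0.0146, adjusted p = 0.0586), and the other 6 steps had adjusted p from 0.242 to 0.930. The order was the same in the controls alone and in batch 2. In the mutants Nlrp4e came next after Nlrp9c and Nlrp9b was last, and in batch 1 Nlrp4a fell behind Nlrp4e and Nlrp4c and Nlrp9b was last, while Nlrp14 and Nlrp9c led in every group. With the controls alone no step was called, and the smallest exact p that 6 embryos allow is 0.0312 before adjustment over the 8 pairs.

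**Figure D1:**
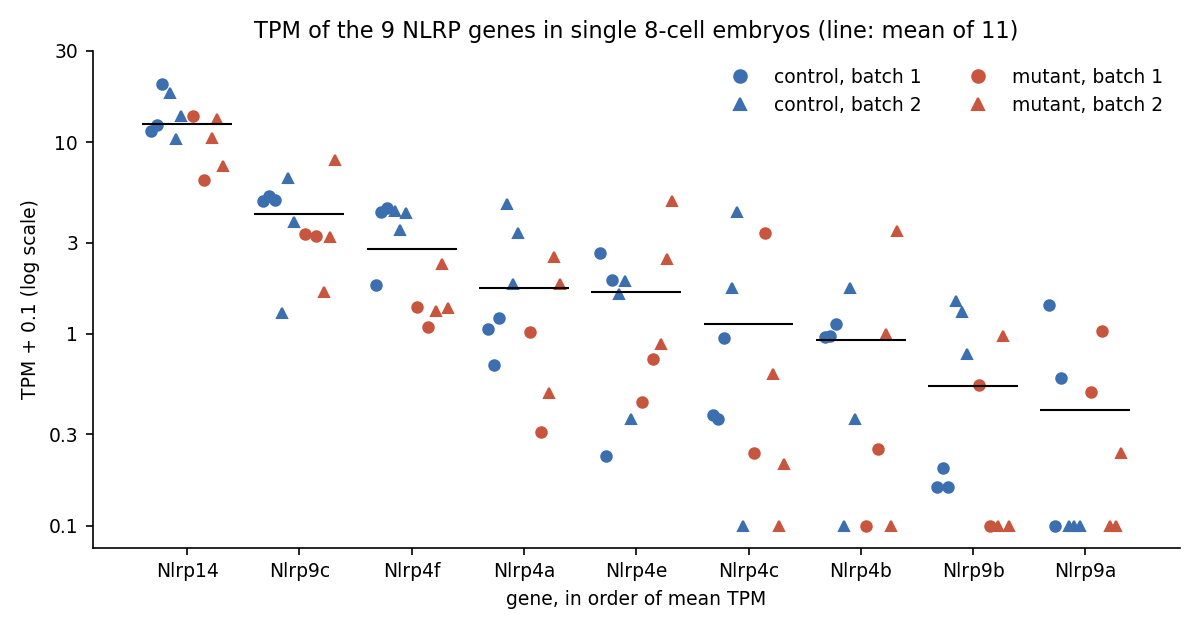
TPM + 0.1 on a log axis for each of the 9 NLRP genes (x axis, in order of mean TPM), with a point for each of the 11 embryos, colour for genotype, shape for batch and a line at the mean. Nlrp14 lies between 6.27 and 20.1 TPM in every embryo, and the genes from Nlrp4c downwards have embryos listed at 0.

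Per embryo, 5 to 8 of the 9 genes were detected, 5 to 8 in the controls and 6 or 7 in the mutants. Their summed TPM was 23.6 at the lowest, 28.4 at the median and 34.8 at the highest of the controls, and 15.8, 24.0, 26.9, 20.4 and 15.6 in the mutants. The mutants with 24.0 and 26.9 lay inside the control range and the other 3 below it. Only Nlrp14 had 10 or more counts in all 11 embryos, and only Nlrp14 and Nlrp9c had a TPM of 1 or more in all 11. In bulk RNA of whole embryos, fewer cells with a transcript and less of it per cell cannot be told apart.

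**Figure D2:**
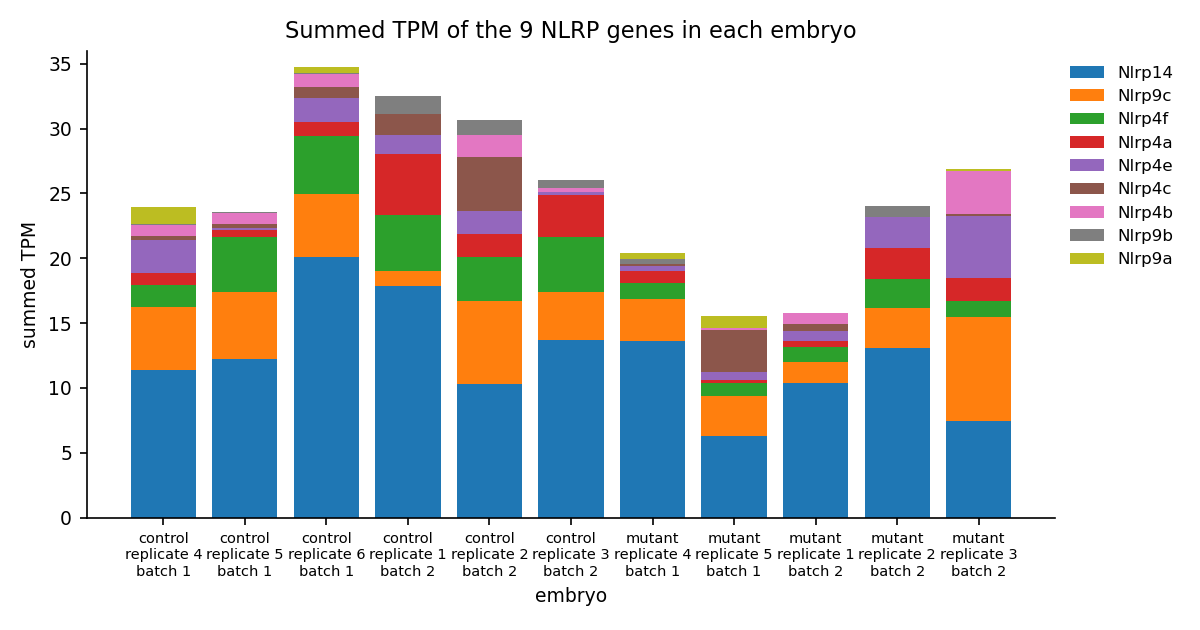
Summed TPM (y axis) of the 9 NLRP genes in each embryo (x axis, with genotype, replicate and batch), stacked by gene. The sum runs from 15.6 in mutant replicate 5 to 34.8 in control replicate 6, and Nlrp14 is the largest block except in mutant replicate 3.

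Whether loss of Prdm10 changes these transcripts was asked by comparing mutants with controls in DESeq2 with batch as a term, over all genes. None of the 9 genes was called, against 1.45% of the 10448 genes tested (151, of which 59 were higher and 92 lower in mutants). A gene was called at an adjusted p under 0.05 with a mean normalised count above 10, and 6 of the 9 passed that minimum (Nlrp4a, Nlrp4c, Nlrp4e, Nlrp4f, Nlrp9c and Nlrp14). Of these, 0 had an unadjusted p under 0.05 in DESeq2 (11.9% of all genes did), 0 in edgeR (9.33%) and 1, Nlrp4f, in limma (9.95%). No member was called by either tool, against 0.306% of all genes with edgeR (32, of which 6 were higher and 26 lower) and 0.21% with limma (22, of which 1 was higher and 21 lower). The median log2 difference of the 6 was -0.51, with 5 below 0, beside a median of -0.0012 and 50.2% below 0 over all genes tested. All p-values measure the spread between embryos.

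Nlrp14 had normalised counts of 112 at the lowest, 146 at the median and 250 at the highest of the controls, and 113, 151, 78.0, 150 and 66.2 in the mutants. The groups overlapped, with mutant replicates 3 and 5 below all controls. The log2 difference was -0.59 ± 0.31 (SE) with a 95% interval from -1.19 to 0.0078, and it was not called (DESeq2 adjusted p = 0.443). It was -0.62 in batch 1 alone and -0.57 in batch 2 alone, and below 0 in all 22 alternative settings (-0.80 to -0.42, adjusted p 0.350 to 0.998). Settings that changed only a filter after the fit kept the main estimate and could not turn its sign.

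The values of Nlrp4f depended on the unit. Its normalised counts were 3.28 at the lowest, 19.3 at the median and 55.5 at the highest of the controls, and 19.6, 30.5, 5.85, 15.4 and 9.32 in the mutants, all within the control range. Its TPM was 1.70 at the lowest, 4.22 at the median and 4.45 at the highest of the controls, and 1.22, 2.21, 1.27, 1.29 and 0.99 in the mutants. On this scale 4 of 5 mutants lay below every control, and only mutant replicate 2 lay above the lowest control, replicate 4.

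The units differ by the effective length, the mean length of the transcripts to which the reads were assigned, which for Nlrp4f ran from 486 to 3302 bases between embryos, a ratio of 6.79. The 486 bases came from control replicate 4, with 4 expected counts, and the next shortest was 830 in control replicate 6, with 21. For the other 8 genes the ratio of longest to shortest was 1.34 (Nlrp14) to 3.93 (Nlrp9b). The shortest length of Nlrp9b came from mutant replicate 2, with 5 counts. Embryos at 0 counts also have a listed length, which rests on no reads. The log2 difference of Nlrp4f was -0.56 ± 0.63 (SE) on counts (DESeq2 adjusted p = 0.817), -1.46 ± 0.48 with the effective length as an offset (DESeq2 adjusted p = 0.0900, 1.49% of genes called) and -0.98 with limma on log2(TPM + 1) (unadjusted p = 0.00314, adjusted p = 0.257, 0.21% of genes called). On counts it ran from -0.81 to -0.16 with an embryo left out, the smallest without control replicate 1. None passed the threshold, and the share of the effective length in the TPM difference was not tested further.

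**Figure D3:**
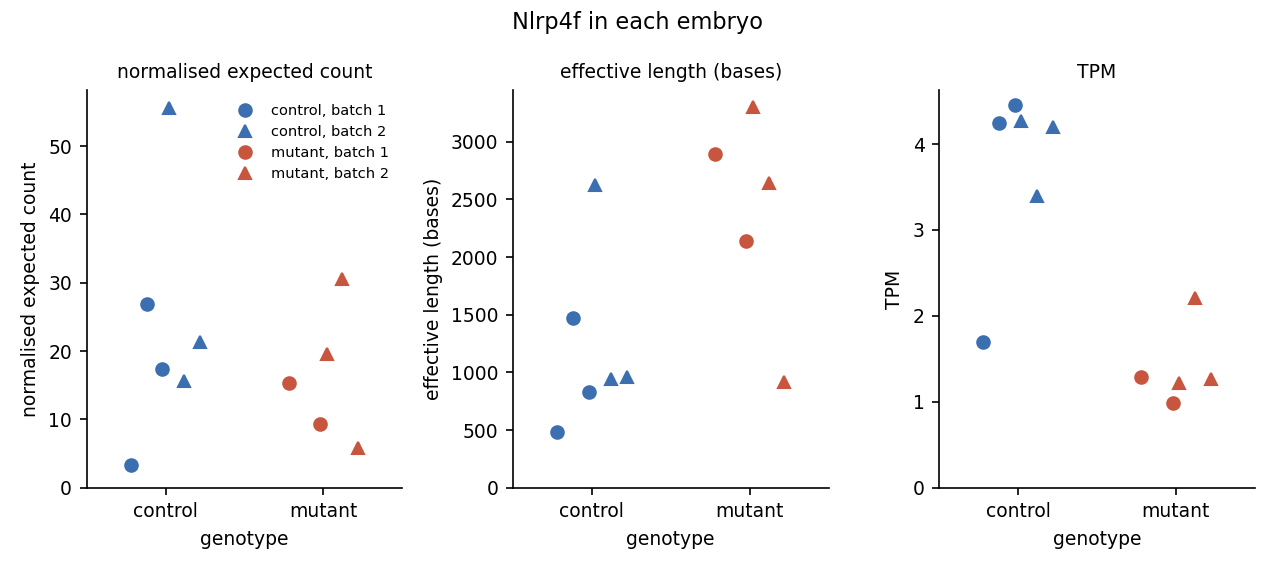
Nlrp4f in each embryo as normalised expected count, effective length in bases and TPM (y axes from 0), by genotype (x axis), with colour for genotype and shape for batch. The groups overlap in counts, while the TPM of 4 of 5 mutants (0.99 to 1.29) is below the lowest control (1.70).

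The other 4 genes above the count minimum had log2 differences with wide intervals. Nlrp4a was lower in mutants by its estimate (-0.93 ± 0.58 SE, 95% interval -2.07 to 0.21) and Nlrp4e higher (0.22 ± 0.74, -1.23 to 1.67), neither called by DESeq2 (adjusted p = 0.557 and 0.958). For Nlrp4c the estimate was -0.46 ± 1.17 and for Nlrp9c -0.37 ± 0.53 (DESeq2 adjusted p = 0.940 and 0.875). With an embryo left out the estimate ran from -1.46 to -0.65 for Nlrp4a, the lowest without mutant replicate 4. For Nlrp9c it ran from -0.83 without mutant replicate 3 to -0.21 without mutant replicate 1. The sign turned for the other 2, with -2.14 to 0.142 for Nlrp4c and -0.177 to 0.622 for Nlrp4e. Nlrp4b, Nlrp9a and Nlrp9b had mean normalised counts of 5.63, 3.03 and 5.74, too few for a call. Intervals of this width leave changes of more than 2-fold in either direction possible for Nlrp4e and Nlrp4c.

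Batch was read from the same fit, since the level of an oocyte transcript can move with the amplification or with the embryos collected on each occasion. Of the 6 genes above the count minimum, 1 was called, against 27.9% of the 10448 genes tested (2911, of which 1445 were higher and 1466 lower in batch 2). That gene was Nlrp4a. Its TPM was 0.96, 0.59, 1.11, 0.93 and 0.21 in batch 1, and 0.39 at the lowest, 2.08 at the median and 4.68 at the highest of batch 2. Of batch 2 only mutant replicate 1 (0.39) lay within the range of batch 1, and the other 5 embryos lay above it.

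Nlrp4a differed by 1.58 ± 0.58 (SE) on the log2 scale (DESeq2, adjusted p = 0.0335). The call was lost in edgeR (1.58, adjusted p = 0.0748, 21.6% of genes called) and in limma on log2(TPM + 1) (0.89, adjusted p = 0.0525, 23.9% called, 593 higher and 1911 lower, with a median over all genes of -0.20). The log2 difference was above 0 in all 19 alternative settings, each with an unadjusted p under 0.05. Those that changed only a filter after the fit kept the main estimate. With an embryo left out, in 11 fits, it ran from 1.32 to 2.13. The call was nonetheless lost in 7 of those 11 fits, with adjusted p = 0.106, 0.0929, 0.0795, 0.0859 and 0.0563 without control replicates 1, 3, 4, 5 and 6, and 0.108 and 0.106 without mutant replicates 2 and 5 (DESeq2). The summed TPM of the oviduct markers and of the blood and immune markers given above was also higher in batch 2, and that of the cumulus and granulosa markers lower, each without overlap between the batches, and their part in this difference was not tested.

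Nlrp9a, which was not called, was detected in 4 of 5 embryos of batch 1 and 0 of 6 of batch 2, with expected counts of 9.23, 0, 9.13, 5 and 11 in batch 1 and 0 in every embryo of batch 2 but mutant replicate 3 (2 counts). With a mean of 3.03 normalised counts it was below the minimum for a call, and its log2 difference of -4.21 ± 1.64 (SE) had an unadjusted p of 0.0104 in DESeq2 and no adjusted p. Where DESeq2 gave an adjusted p, it was 0.0437 with TMM factors, 0.0450 with the length offset, 0.0256 without control replicate 5, and 0.0526 to 0.0697 without control replicate 2 or 3 or mutant replicate 1 or 2, always below the count minimum. Nlrp9b was distributed in the opposite way, detected in 1 of 5 embryos of batch 1 and 4 of 6 of batch 2 (1.58 ± 1.31 SE, DESeq2 adjusted p = 0.419). With an embryo left out, the log2 difference of Nlrp9b ran from 0.94 to 3.79, the highest without mutant replicate 4 (DESeq2 adjusted p = 0.0302, below the count minimum). The most abundant members did not separate the batches, with log2 differences of 0.05 ± 0.31 for Nlrp14 and 0.08 ± 0.53 for Nlrp9c (DESeq2 adjusted p = 0.932 and 0.937).

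**Figure D4:**
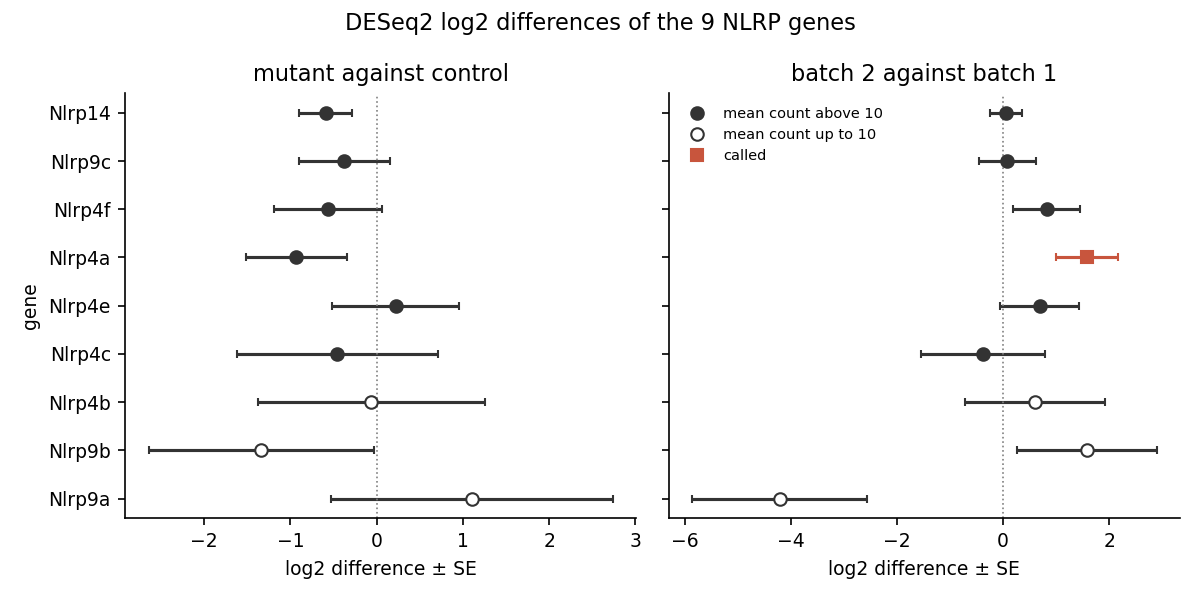
DESeq2 log2 difference (x axis) with its SE for each of the 9 NLRP genes (y axis), mutant against control on the left and batch 2 against batch 1 on the right. Open points mark genes with a mean normalised count of 10 or less, and Nlrp4a in the batch comparison (1.58) is the only gene called.

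A test of whether the genotype difference itself differed between batches called none of the 6 genes, against 0.0382% of 10472 genes (4) in DESeq2, and 0 members with edgeR (0.0% of genes) and with limma (0.00953%). The unadjusted p of the 6 was above 0.05 for each tool (4.3% of genes were under it in DESeq2). Below the count minimum, Nlrp9b had an unadjusted p of 0.0313 and an adjusted p of 1.00 (DESeq2), with TPM of 1.38, 1.20 and 0.69 in the controls of batch 2 and 0, 0.88 and 0 in its mutants. In batch 1 the same gene had a TPM of 0.06, 0.10 and 0.06 in the controls and 0.44 and 0 in the mutants.

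To place the variation of Nlrp14 between embryos, the genes whose normalised counts followed it most closely were taken, after centring log2(normalised count + 1) within each batch. Over 11 embryos and 10488 genes with a mean above 10, these were Mrpl32 (r = 0.917), a protein of the mitochondrial ribosome, Hmmr (0.899), which acts at the spindle, Ssbp1 (0.890), which binds mitochondrial DNA, Dcun1d1 (0.886), which takes part in neddylation, and Slc25a11 (0.878), a mitochondrial carrier. Spearman's rho was 0.818 to 0.945 for the 5, and r was 0.752 to 0.935 without mutant replicate 5 and control replicate 6, the embryos farthest from the median of Nlrp14. They were picked as the highest of all genes, and all values share the libraries and their depth, so they are given as a description.

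Among the members, Nlrp4a (r = 0.724) and Nlrp4f (0.661) varied with Nlrp14, while Nlrp4e (0.0089), Nlrp4c (-0.0142) and Nlrp9c (-0.151) had values near or below 0. Without the 2 embryos farthest from the median of Nlrp14, r was 0.671 for Nlrp4a, 0.821 for Nlrp4f, -0.534 for Nlrp4e, 0.215 for Nlrp4c and -0.627 for Nlrp9c, so that the last 3 values rest on few embryos. Over all 15 pairs of the 6 genes the median r was 0.0089, with 8 pairs above 0. Of 20 other oocyte and subcortical maternal complex genes, 15 had an r above 0 (median 0.362, beside -0.00997 over all genes), from Npm2, a histone chaperone of the egg (0.852), to Khdc3, a subunit of that complex (-0.644). Of 9 cleavage-stage genes, 8 had an r below 0, with Tead4, a trophectoderm transcription factor, lowest at -0.875, and Nanog, the pluripotency factor, was the exception at 0.815. Without the 2 farthest embryos r was 0.736 for Npm2, -0.865 for Tead4 and 0.791 for Nanog. The values were centred by batch and not by genotype, and the sign of r for each of the 9 cleavage-stage genes was opposite to that of its genotype difference. Nlrp14 was lower in mutants by its estimate (-0.59), while 8 of the 9 cleavage-stage genes were higher (median log2 difference 0.52), and the 1 below 0 was Nanog (-1.05). Of the 9, Klf5 and Krt18 were called higher in mutants (1.45% of all genes were called by genotype) and 5 lower in batch 2 (27.9% were called by batch), and the part of genotype in this pattern was not tested.

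**Figure D5:**
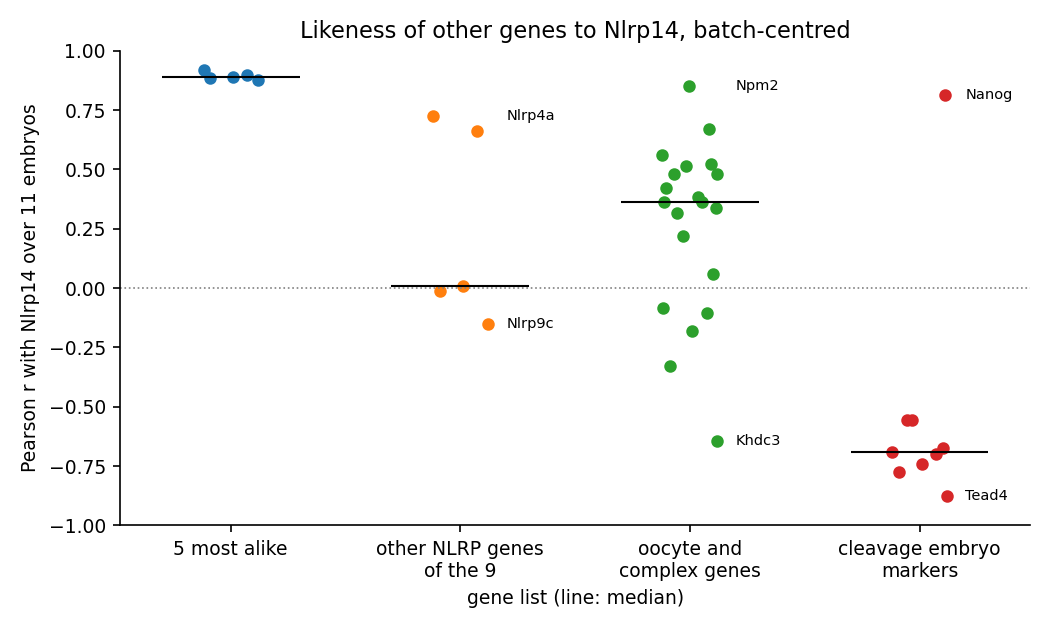
Pearson r with Nlrp14 over 11 embryos (y axis), after centring within batch, for the 5 most similar genes, the other 5 of the 9 NLRP genes with a mean normalised count above 10, 20 oocyte and complex genes and 9 cleavage embryo markers (x axis), with a line at each median. The medians are 0.890, 0.0089, 0.362 and -0.690, and Nanog (0.815) stands apart from the other cleavage markers.

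The spread between embryos was not the same for all members. The coefficient of variation of normalised counts was 37.7% for Nlrp14, 49.5% for Nlrp9c and 71.6% to 139% for the other 7. The dispersion that DESeq2 fitted to each gene alone was 0.116 for Nlrp14, close to the 0.110 of genes with a similar mean, and 2.42 for Nlrp4c, whose trend value was 0.844. The counts of Nlrp4c came from few embryos with much of it (39.3 normalised counts in mutant replicate 5, 28.2 and 27.8 in control replicates 1 and 2) and 5 embryos with under 3.

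The rest of the family gave a mixed picture in the same libraries. Of 12 other NLRP genes, 3 passed a mean normalised count of 10. Of these, 0 were called by genotype or by batch, beside 1.45% and 27.9% of all genes. Below the count minimum, Nlrp4g (mean 5.83) was higher in batch 2 without overlap (log2 difference 3.22 ± 1.03 SE, DESeq2 adjusted p = 0.0112). Nlrp12, a regulator of inflammatory signalling in myeloid cells, had a TPM of 4.44 ± 2.05 (SD, n = 11), and Nlrp5, the MATER protein of the subcortical maternal complex, 3.02 ± 1.81, both in the range of Nlrp9c and Nlrp4f. Nlrp5-ps, the pseudogene of Nlrp5, had 3.73 ± 2.32. Nlrp1a, Nlrp4d and Nlrp10 were listed at 0 in every embryo, and Nlrp3 and Nlrp6, both inflammasome sensors, had a mean TPM of 0.0482 and 0.0582. Of 11 other NOD-like receptor genes, 2 passed the count minimum and 0 were called by genotype or by batch, beside the same shares of all genes. The highest was Ciita, the activator of MHC class II genes, at 1.29 ± 0.842.

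Genes that work with inflammasome NLRP proteins were mostly at the limit of detection. Of 9 such genes, 2 passed a mean normalised count of 10 and 0 were called by genotype or batch, beside 1.45% and 27.9% of all genes. Pycard, the adaptor, had a TPM of 6.04 ± 4.54 and Txnip 5.22 ± 4.13 (SD, n = 11), while Casp1, Il1b and Gsdmd, the protease, the cytokine and the pore-forming protein downstream, had means of 0.0291, 0.0709 and 0.0291. Of the 7 subcortical maternal complex genes, 6 passed, 0 were called by genotype and 1, Padi6, was called lower in batch 2. Of 22 other oocyte genes, 14 passed, with 0 called by genotype, a median log2 difference of -0.47 and 12 below 0, beside the -0.0012 of all genes. By batch, 2 of the 14 were called, beside 27.9% of all genes, both higher in batch 2, Oosp1 (log2 difference 2.53 ± 0.57 SE, DESeq2 adjusted p = 0.000132) and Dppa3 (0.43 ± 0.13, DESeq2 adjusted p = 0.00603). The summed TPM of the 9 NLRP genes, 15.6 to 34.8, was small beside that of Khdc3 alone (140 ± 90.9), the most abundant transcript of the complex.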

How the data were processed

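Single embryos were lysed and their polyadenylated RNA was amplified by Smart-seq2, followed by Nextera XT libraries and single-end sequencing without strand or molecular identifiers. The authors aligned reads with STAR 2.6.0c and quantified genes with RSEM on GRCm38.p6 and GENCODE M18; the deposited expected counts and the deposited TPM were used as given, with RSEM's effective lengths and posterior SD. The authors' table of differential expression holds their fold changes and p-values and was not used.

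Expected counts were rounded and tested with DESeq2 1.42.0 (R 4.3.3; Wald test, unshrunken, batch and group as terms, Benjamini-Hochberg over all genes; called at adjusted p under 0.05 with a mean normalised count above 10). The study's methods name DESeq2 1.22.2 and both thresholds, while the rounding, the terms and the unshrunken Wald test were chosen here. The alternatives were edgeR 4.0.16, limma 3.58.1 on log2(TPM + 1), TMM factors, other count minimums, no batch term, each batch alone, a length offset and leaving out each embryo. Detection needed 3 expected counts, and neighbours in TPM were compared on log2(TPM + 0.1). Sequences came from GENCODE vM21 transcripts and RefSeq promoter windows; reference proteins were not used here, and coding sequences took their place. The members and gene lists were chosen with earlier results of these data known. Named genes were the 9 members, from each list the 2 with the highest TPM and those called, from which the text gives those a result turns on, and the 5 most like Nlrp14. A few further list genes (among them Nlrp5, inflammasome genes, Npm2, Star and those at 0) were named after their values were seen.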

Additional observations from a re-analysis of the deposited data

Results flagged for a closer look

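For each of the 9 genes, the highest and the lowest embryo were checked against the rest of their group by Dixon's criterion, on normalised counts and on TPM, in controls and in mutants. Of 36 such groups 9 held an embryo that stood apart. Chance flags about 1 in 20 groups of independent normal values, but counts and TPM of a gene share their embryos, 3 cases below appear on both scales, and many values are low or 0, so the number of flags is given with no chance value.

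Mutant replicate 3 had 24.4 normalised counts of Nlrp4b (TPM 3.35) where the other mutants had 0 to 4.53 (TPM 0 to 0.900). The same embryo had 55.6 normalised counts of Nlrp9c (TPM 8.01), against 12.1 to 23.6 (TPM 1.56 to 3.21) in the other mutants. Mutant replicate 5 had 39.3 normalised counts of Nlrp4c (TPM 3.25), against 0 to 9.06 (TPM 0 to 0.520). Mutant replicate 2 had a TPM of 2.21 for Nlrp4f, against 0.990 to 1.29.

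Among the controls, replicate 4 had a TPM of 1.32 for Nlrp9a, against 0 to 0.490, and replicate 1 had 7.46 normalised counts of Nlrp9c, against 33.7 to 41.7 in the other 5. Control replicate 1 was also the library that correlated least with its batch.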

How the results depend on the processing

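No member was called by genotype in any of 22 alternative settings, and none for the interaction in any of 14. The number of genes called by genotype over the whole table moved from 151 to 32 with edgeR, 22 with limma and 51 without a batch term. It was 78 with batch 1 alone and 48 with batch 2 alone. With an embryo left out it was between 90 and 265. The lowest was without mutant replicate 2 (91 without mutant replicate 5) and the highest without control replicate 2. The 1 member called by batch became 0 with edgeR, with limma and with a minimum of 100 counts, which only Nlrp14 passes, and 0 to 1 with an embryo left out. Of the 8 steps in the order of TPM, 1 differed in the main comparison, 0 with controls alone and 1 to 2 with an embryo left out (2 when this was control replicate 1 or mutant replicate 3). By normalised count, not divided by length, Nlrp4a (25.1) stood above Nlrp4f (20.1) and Nlrp9b (5.74) above Nlrp4b (5.63), the reverse of the TPM order. Neither pair differed (exact sign-flip test, adjusted p = 0.733 and 0.848). The 4 genes detected in all embryos became 1 at 10 counts and 2 at a TPM of 1. The cause of these changes was not tested beyond the smaller number of embryos or genes in some of them.

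Signs of uncalled log2 differences turned as follows. By genotype, Nlrp4b was 0.286 without a batch term and 1.51 in batch 2 alone, Nlrp4c 1.61, Nlrp4e -1.42 and Nlrp9b 1.65 in batch 1 alone, and Nlrp9c 0.0933 in batch 2 alone. With limma the batch difference of Nlrp4c was 0.0132 and of Nlrp9c -0.215, and the interaction of Nlrp4f 0.0295. With an embryo left out, the genotype difference ran from -1.53 to 0.714 for Nlrp4b, -2.14 to 0.142 for Nlrp4c and -0.177 to 0.622 for Nlrp4e. The batch difference ran from -0.118 to 0.268 for Nlrp14, -0.221 to 1.30 for Nlrp4b, -0.900 to 1.28 for Nlrp4c and -0.263 to 0.389 for Nlrp9c. The interaction ran from -0.415 to 0.762 for Nlrp14, -1.59 to 0.874 for Nlrp4a, -0.986 to 0.362 for Nlrp4f and -1.28 to 1.57 for Nlrp9a. No paired analysis was possible because the labels give no replicate numbers, and the numbers used here follow accession order, name different embryos and pair none of them. The 3 lowest genes had mean normalised counts under 10, below the minimum for a call.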
